A study of Medicago truncatula with 16 samples.

Results

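The genes described here are those of *Medicago truncatula* whose transcripts were higher after polyethylene glycol (PEG) treatment in cotyledons at both stages sampled and changed less than a set limit upward, or fell, in radicles of the same stages. They were chosen by their measured levels, with a rule on 4 differences between PEG-treated and untreated groups of the same tissue and stage. Levels were CPM, the usual scaling of counts to a common library size, for which each count was divided by the total of its library over the genes with a chromosome identifier. A difference was taken between the log2(group mean CPM + 1) of both groups. A gene was kept when the difference was at least 1 in cotyledons at 5 mm and at 1 mm and under 0.5 in radicles at 5 mm and at 1 mm. Of 44316 genes with a chromosome identifier, 35713 had a count above 0 in any library and 99 met all 4 thresholds. The rule would have kept the 150 with the widest gap between the tissues, so all 99 were taken, ranked by that gap. The limit in radicles does not exclude a rise there: 7 of the 81 members that could be tested in radicles (8.64%) were called higher with PEG at 1 mm, where 15.2% of all genes tested were. With libraries scaled by their totals, as in the rule, 2 members were called, with no share of all genes computed.

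The libraries were RNA-Seq of cotyledons and radicles dissected from germinating seeds of the A17 line, in 8 groups of 2 biological replicates. C5P and C1P were cotyledons of seeds with a radicle of 5 mm or 1 mm after 3 days in PEG8000 at -1.7 MPa and 10 °C in the dark, and C5 and C1 were cotyledons of untreated seeds of the same radicle length. R5P, R5, R1P and R1 were the radicles of the same 4 kinds of seeds. A control held at 10 °C in darkness but without PEG is lacking, so PEG, cold, darkness and the added 3 days cannot be told apart. Many seeds were pooled for each sample, and the sources differ on how many and on whether the tissue was dried before extraction.

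Germinating seeds lose the tolerance to drying that the mature seed has, and an osmotic treatment such as PEG, which withdraws water without entering the cells, can bring part of the seed programme back in young seedlings. Cotyledons of legumes store protein, oil and sugars that feed the seedling and later turn green, whereas the radicle is a growing root tip. Transcripts that respond to water deficit commonly include protective proteins of late seed development, enzymes of sugar metabolism and antioxidant defence, and transcription factors that act with abscisic acid.

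The summed estimated counts were between 22012976 and 23257652 per library, and 3 counts correspond to 0.129 to 0.142 CPM, a level at or under which a gene is called at the floor here. The labelled tissues were checked with markers. The 11-S storage protein gene *MtrunA17_Chr1g0185811* had 13.1 to 32.7 CPM in the 8 cotyledon libraries and at most 3.73 CPM in radicles, and the WOX family gene *MtrunA17_Chr7g0254251* had 0.176 to 1.81 CPM in cotyledons and 3.31 to 46.8 CPM in radicles. The annotated ribulose-bisphosphate carboxylase gene *MtrunA17_Chr4g0072241* went against its use as a cotyledon marker, with 0.0441 to 0.753 CPM in cotyledons and 0.951 to 23.2 CPM in radicles, and the other markers overlapped between the tissues. Of these, the 11-S gene *MtrunA17_Chr1g0185841*, a cotyledon marker, was highest in R1P, at 1537 and 1556 CPM, against 226 and 252 CPM in C1P. The casparian strip gene *MtrunA17_Chr2g0290281*, a radicle marker, was lower in radicles than in cotyledons except after PEG at 5 mm. It had 69.6 and 37.9 CPM in C5 against 12.4 and 17.3 CPM in R5, and 4.12 and 5.54 CPM in C5P against 8.31 and 8.45 CPM in R5P. The summed level of the 6 cotyledon markers was 744 to 781 CPM in C5P and 514 to 544 CPM in C1P, 26.9 to 32.5 CPM in C5 and 50.1 to 50.2 CPM in C1, 538 to 601 CPM in R5P and 1622 to 1636 CPM in R1P, and 19.0 to 25.9 CPM in untreated radicles. The summed level of the 3 radicle markers was 3.71 to 7.22 CPM in treated cotyledons, 13.2 to 70.6 CPM in untreated cotyledons and 20.2 to 49.4 CPM in radicles, with none of the 3 at 0 in a group. Replicate 2 of C1P stood apart, with 4.06% of its counts from chloroplast genes, against 0.723% in replicate 1 of C1P, 0.707 and 0.923% in C5P, 0.313 to 0.477% in untreated cotyledons and 0.046 to 0.265% in radicles. Its part in the differences of the members was not tested. Without this library 90 of the 99 members met the rule and 114 genes in all did. Each sample is a bulk extract, in which fewer cells of a type and less RNA per cell cannot be told apart.

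The rule left few of the genes that PEG raised in cotyledons. The difference was at least 1 for 1835 genes at 5 mm, for 1516 genes at 1 mm and for 899 genes at both, and all but 99 of these 899 were at or above 0.5 in radicles at 5 mm, at 1 mm or at both. The values just inside and outside the thresholds were close. At 5 mm in cotyledons *MtrunA17_Chr4g0038121* had 1.02 and *MtrunA17_Chr1g0169121*, which was left out, had 0.997063. At 1 mm in cotyledons *MtrunA17_Chr2g0287211* had 1.00 and the excluded *MtrunA17_Chr2g0330951* 0.99. In radicles *MtrunA17_Chr4g0015851* had 0.43 against 0.51 for the excluded *MtrunA17_Chr3g0121111* at 5 mm, and *MtrunA17_Chr5g0397421* had 0.496291 against 0.51 for the excluded *MtrunA17_Chr6g0456401* at 1 mm.

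**Figure D1:**
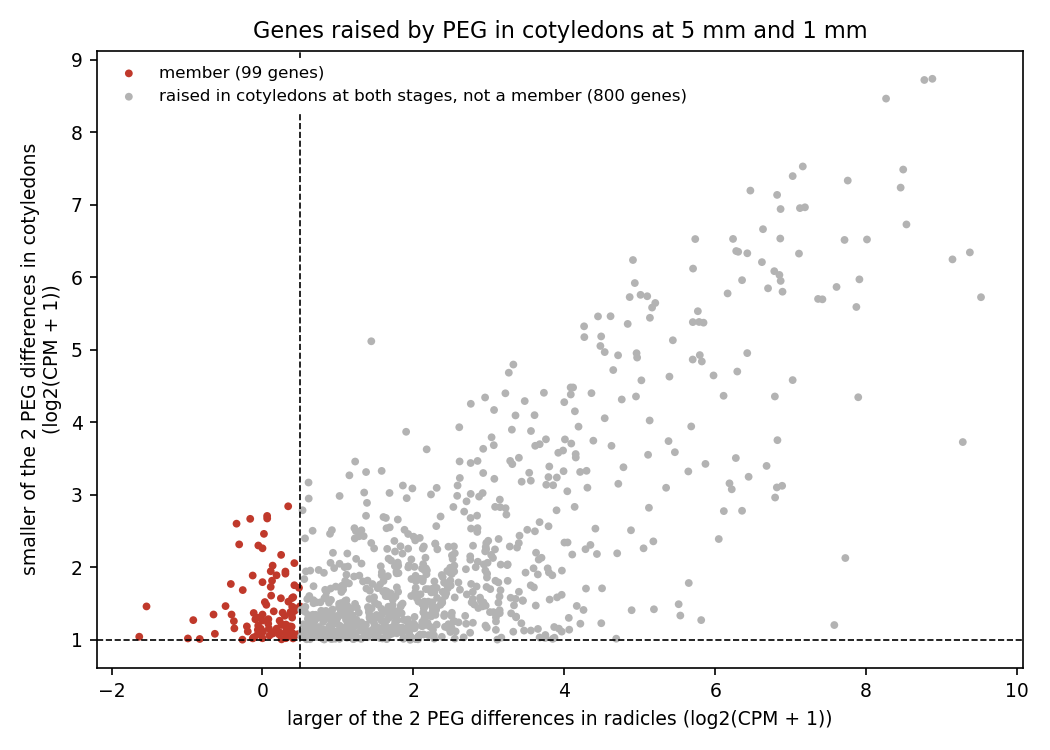
Each point is 1 of the 899 genes raised by at least 1 in log2(CPM + 1) in cotyledons at both stages, with the larger of its PEG differences in radicles on the horizontal axis and the smaller of its PEG differences in cotyledons on the vertical axis. The 99 members (red) lie left of the dashed line at 0.5, and the other genes (grey) lie at or right of it.

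The differences that chose the members are given as a description. In cotyledons the median difference of the 99 members was 1.58 at 5 mm (quartiles 1.21 and 2.06, highest 4.64) and 1.48 at 1 mm (quartiles 1.21 and 2.05, highest 3.87), on the log2(CPM + 1) scale. In radicles the median was -0.07 at 5 mm (lowest -2.82) and 0.02 at 1 mm (lowest -1.63). The difference was 2 or more at both stages in cotyledons for 12 members. It was below 0 at both stages in radicles for 32 members and at or under -1 at both stages for 2. All 99 members had both C5P libraries above both C5 libraries, and 97 had both C1P libraries above both C1 libraries. In radicles both R5P libraries were above both R5 libraries in 20 members and below them in 35, and both R1P libraries were above both R1 libraries in 28 and below them in 23. The exceptions were *MtrunA17_Chr4g0016201*, with 6.56 and 0 CPM in C1P and 1.56 and 0 CPM in C1, and *MtrunA17_Chr4g0016821*, with 3.42 and 0 CPM in C1P and 0 CPM in both C1 libraries. Both are named because they were found to overlap, outside the rule for named genes. The same counts of libraries without overlap were not computed over all genes. The rule used these libraries, so nothing particular to the members is read from the counts.

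The median of the members' group means was 26.2 CPM in C5P and 6.22 CPM in C5, and 14.9 CPM in C1P and 2.99 CPM in C1. In radicles it was 4.98 CPM in R5P and 7.18 CPM in R5, and 2.74 CPM in R1P and 3.63 CPM in R1. The highest of the 8 group means was that of C5P in 54 members and of C1P in 19, whereas it was that of a radicle group in the other 26. In 27 members the lowest group mean was that of C5 and in 22 that of C1. PEG-treated cotyledons were above PEG-treated radicles by more than 1 in log2(CPM + 1) for 61 members at 5 mm and 57 at 1 mm, and below by more than 1 for 7 and 9. Without PEG, cotyledons were above radicles by more than 1 for 26 members at 5 mm and 17 at 1 mm, and below by more than 1 for 36 and 33. The counts of highest and lowest group means and of tissue differences were not computed over all genes. They use the libraries of the rule and have no test. A rule that asks for a rise in cotyledons and limits it in radicles favours treated cotyledons over treated radicles, so nothing is read from these counts.

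**Figure D2:**
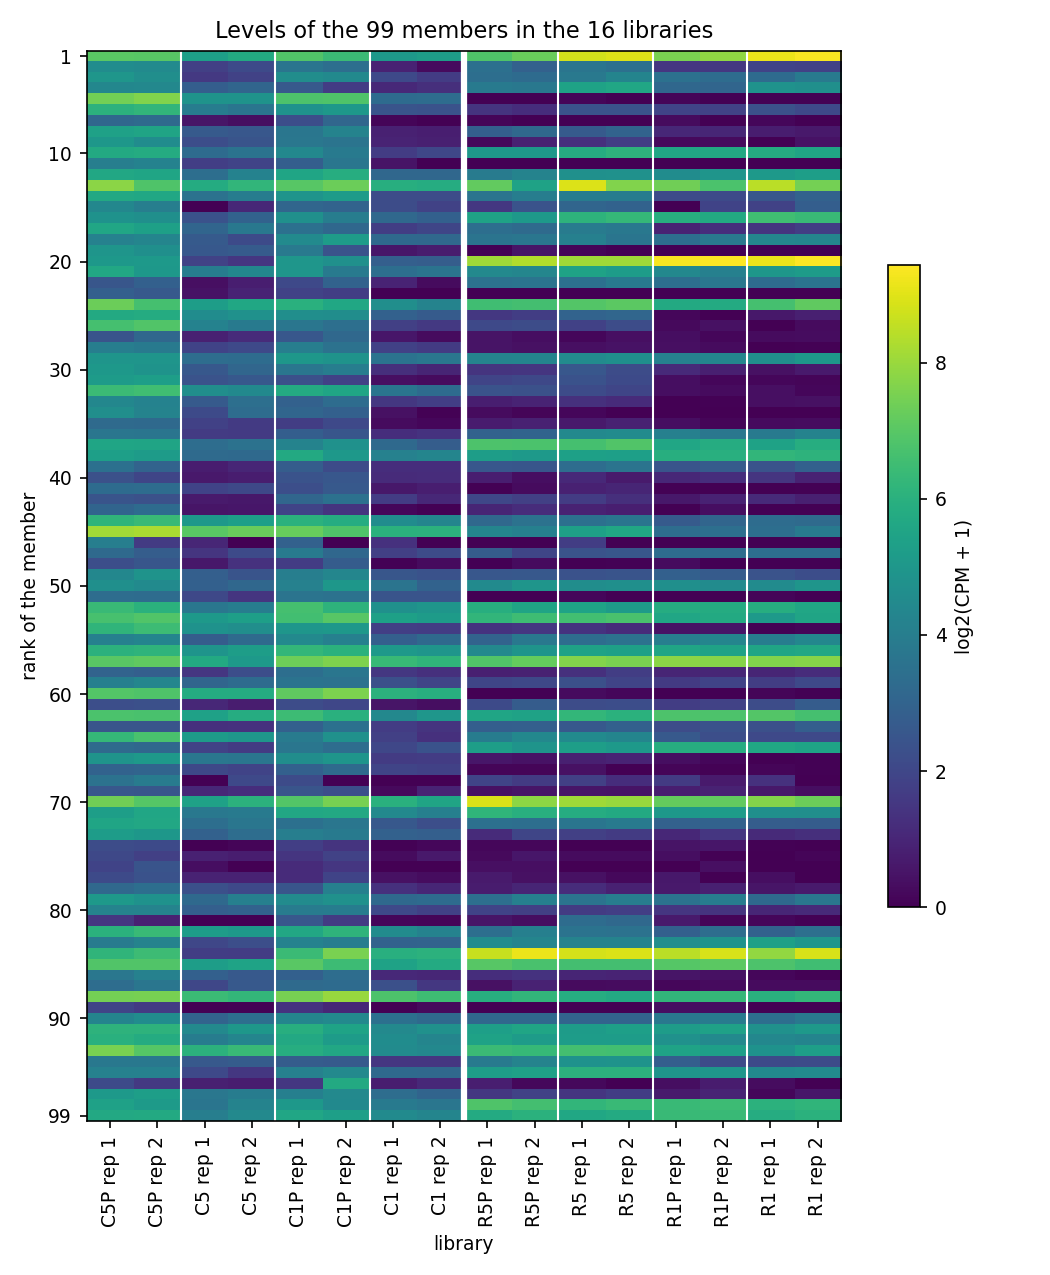
Each row is 1 of the 99 members in the order of the rule and each column 1 of the 16 libraries, cotyledons left of the thick line, with colour for log2(CPM + 1). Both C5P columns are brighter than both C5 columns in all 99 members and both C1P columns brighter than both C1 columns in 97, while many rows are dark across the radicle columns and others are bright there.

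The members fell into 3 classes by their highest radicle library. In 23 members no radicle library reached 1 CPM, in 28 the highest radicle library had 1 to 10 CPM, and in 48 it had 10 CPM or more. Of the 99 members, 63 were over 3 counts in all 8 radicle libraries and 4 were at 3 counts or fewer in all 8. The share at 3 counts or fewer in all radicle libraries was 4.04% of the members and 19.9% of the genes detected in any library. Among the 899 genes raised in cotyledons it was 0.445%, from the same 4 genes. A gene at 3 counts or fewer in every radicle library is too low to reach the rule's upper limit for radicles. Every such gene among the 899 therefore had to be a member, so nothing is read from 4.04% against 0.445%. The median PEG difference in cotyledons was 1.58 at 5 mm and 1.75 at 1 mm in the class under 1 CPM, 1.67 and 1.78 in the class of 1 to 10 CPM, and 1.57 and 1.31 in the class of 10 CPM or more. CPM is not scaled to gene length, so levels of different genes, and with them these classes, also depend on gene length.

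In the edgeR fits, which scale libraries with TMM factors and call a gene at an adjusted p under 0.05 and a log2 fold change past 1, 94 of 99 members were called higher in C5P than in C5, where 9.02% of the 23060 cotyledon genes tested were. In C1P over C1, 96 of 99 members were called higher, where 13.8% of the genes tested were. The members not called were *MtrunA17_Chr4g0016201* and *MtrunA17_Chr4g0016821* in both contrasts, *MtrunA17_Chr3g0127611* at 1 mm, and *MtrunA17_Chr1g0153581*, *MtrunA17_Chr7g0239681* and *MtrunA17_Chr4g0015851* at 5 mm. In radicles 81 members passed the filter on low counts. None of the 81 was called higher in R5P than in R5, where 18.9% of the 23793 radicle genes tested were, and 0 members passed an unadjusted p under 0.05 with that fold in edgeR and 0 were called in DESeq2. Of the 81, 9 were called lower in R5P, where 20.4% of genes were. In R1P over R1, 7 members were called higher and 4 lower, where 15.2% of genes were called higher and 20.5% lower. All of these contrasts were used by the rule, so nothing is read from the counts.

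Membership depended on the scaling. When libraries were scaled by totals in place of TMM factors, the median over genes shifted by -0.37 in R1P over R1, -0.35 in R5P over R5, -0.58 in C1P over C1, -0.10 in C5P over C5, 0.42 in C5P over C1P and 0.11 in R5P over R1P, all on the log2 scale. The rule used library totals. With TMM factors over the 16 libraries, 72 of the 99 members still met it and 151 genes in all did, 23 members being at or above 0.5 in radicles at 1 mm and 6 at 5 mm. The 44 members that met the rule without any 1 of the 16 libraries included 40 that also met it with TMM factors. *MtrunA17_Chr3g0129661*, rank 8, was 1 of the 7 members called higher in R1P. It had 41.0 and 44.8 CPM in C5P, against 5.32 and 4.92 CPM in C5, and 12.0 and 17.7 CPM in C1P, against 0.84 and 0.746 CPM in C1. In radicles it had 6.23 and 8.15 CPM in R5P, against 5.42 and 7.0 CPM in R5, and 1.09 and 1.04 CPM in R1P, against 0.701 and 0.559 CPM in R1, so that its libraries did not overlap at 1 mm in radicles either.

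Functional annotation was at hand for few members, since the only annotation of these identifiers came from supplementary tables of the study, which list genes chosen on radicle data. Of the 99 members, 7 had a functional annotation and 1 more was listed as a hypothetical protein. The others are given by identifier, in which the digit after Chr is the chromosome. No sequence is shown, because none of the members could be matched to a reference sequence here.

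The member of rank 1 moved in opposite directions in the tissues. *MtrunA17_Chr3g0130711* is annotated as a putative beta-galactosidase, an enzyme family that removes galactose from cell wall polysaccharides and other sugars. It had 129 and 126 CPM in C5P, against 38.9 and 52.5 CPM in C5, and 116 and 85.2 CPM in C1P, against 32.1 and 36.9 CPM in C1. In radicles it had 113 and 155 CPM in R5P, against 447 and 489 CPM in R5, and 186 and 232 CPM in R1P, against 568 and 649 CPM in R1. Treated libraries were above untreated ones in cotyledons and below them in radicles with no overlap at either stage, and the untreated radicles held the highest values. *MtrunA17_Chr3g0133071*, rank 4 and not annotated, had the same order, with 19.5 and 19.9 CPM in C5P against 6.03 and 7.37 CPM in C5, and 13.7 and 12.9 CPM in R5P against 42.8 and 46.8 CPM in R5. At 1 mm it had 5.16 and 2.23 CPM in C1P against 1.15 and 1.4 CPM in C1, and 7.86 and 7.52 CPM in R1P against 27.2 and 24.7 CPM in R1. These are the 2 members at or under -1 at both stages in radicles.

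*MtrunA17_Chr8g0382441*, rank 3, is annotated as a putative trehalose-phosphatase, which turns trehalose 6-phosphate, a signal of sugar supply in plants, into trehalose. It had 30.4 and 24.7 CPM in C5P, against 1.98 and 2.68 CPM in C5, and 23.9 and 21.3 CPM in C1P, against 3.23 and 2.19 CPM in C1. These are 11.8-fold and 8.34-fold higher group means. In radicles it had 9.63 and 8.76 CPM in R5P against 13.2 and 18.1 CPM in R5, and 10.5 and 9.21 CPM in R1P against 8.89 and 13.4 CPM in R1, so that untreated cotyledons were lower than every radicle library and treated cotyledons higher than every one.

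Transcription factors were represented by 2 annotated members. *MtrunA17_Chr7g0275321*, rank 24, belongs to the bZIP family, which in *Arabidopsis* includes factors that act in the response to abscisic acid. It had 158 and 99.1 CPM in C5P against 37.1 and 47.9 CPM in C5, and 62.3 and 48.4 CPM in C1P against 24.7 and 17.6 CPM in C1. In radicles it had 91.6 and 96.6 CPM in R5P against 119 and 132 CPM in R5, and 51.6 and 54.2 CPM in R1P against 99.2 and 140.1 CPM in R1, each treated pair below its untreated pair. *MtrunA17_Chr6g0488471*, rank 61, of the MYB-HB-like family of DNA-binding proteins, had 3.8 and 3.94 CPM in C5P against 1.06 and 0.702 CPM in C5, and 3.57 and 3.03 CPM in C1P against 0.442 and 0.263 CPM in C1. Its radicle libraries ranged from 3.31 to 5.8 CPM in R5P against 3.54 to 3.7 CPM in R5, which overlap, and from 2.31 to 2.68 CPM in R1P against 3.55 to 5.64 CPM in R1.

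Enzymes linked to glutathione were annotated for 2 members. *MtrunA17_Chr3g0109471*, rank 58, is a putative lactoylglutathione lyase, the enzyme that detoxifies methylglyoxal with glutathione. It had 7.03 and 6.34 CPM in C5P against 1.78 and 3.72 CPM in C5, and 9.56 and 11.9 CPM in C1P against 1.92 and 1.5 CPM in C1, and it was between 0.764 and 2.3 CPM in all radicle libraries. Its counts were not whole in 16 libraries, so reads were shared with similar genes. *MtrunA17_Chr5g0397421*, rank 74, is a putative glutamate–cysteine ligase, the enzyme of the initial step of glutathione synthesis. It had 3.62 and 3.36 CPM in C5P and 2.34 and 1.66 CPM in C1P, while both C5 and both C1 libraries were at the floor, so that it was at least 26.4-fold higher in C5P and at least 15.1-fold higher in C1P against a floor of 3 counts per library. Its radicles went the same way at 1 mm, with 0.407 and 0.475 CPM in R1P against 0.0438 and 0 CPM in R1, and had 0.133 and 0.131 CPM in R5P against 0 CPM in both R5 libraries, levels at which the added 1 in log2(CPM + 1) keeps differences small. The study listed this gene in its cluster 1, made up of genes it chose as higher in R1P than in R1. The neighbouring identifier *MtrunA17_Chr5g0397431*, also a member, had 2.82 and 2.08 CPM in C5P against 0 and 0.0439 CPM in C5, and 1.63 and 0.995 CPM in C1P against 0 and 0.176 CPM in C1.

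*MtrunA17_Chr4g0038741*, rank 37, is annotated as an rlpA-like protein with a double-psi beta-barrel, a fold that expansins, which loosen cell walls, also have. It had 46.1 and 44.8 CPM in C5P against 9.46 and 10.8 CPM in C5, and 17.4 and 26.1 CPM in C1P against 8.36 and 5.92 CPM in C1. Its radicle levels were higher than those of cotyledons at the same stage and treatment and overlapped between treatments, with 111 and 108 CPM in R5P against 101 and 116 CPM in R5, and 47.0 and 56.8 CPM in R1P against 42.3 and 57.9 CPM in R1.

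Of 16 lists of annotated genes, 2 held a member, the transcription factors (2 members of 369 annotated) and within them the MYB factors (1 of 39). The annotation covers only genes of the study's tables, so a list without a member says nothing of unannotated members. The 20 late embryogenesis abundant protein genes, which protect cells during drying, included no member. Of these, 17 were called higher in C5P than in C5 and 17 in C1P than in C1, where 9.02% and 13.8% of all genes were. In each of the radicle contrasts 18 were, where 18.9% (R5P over R5) and 15.2% (R1P over R1) of all genes were. Their medians were between 6.57 and 7.67 on the log2 scale, beside medians of all genes between -0.12 and -0.01. Of 124 ribosomal protein genes tested, none of them a member, 6 were called higher in C5P over C5 (median log2 fold change 0.49, where 9.02% of all genes were called higher) and 95 in C1P over C1 (median 1.40, where 13.8% were). In radicles 69 were called higher in R5P over R5 (median 1.05, where 18.9% of all genes were) and 107 in R1P over R1 (median 1.23, where 15.2% were). The study chose part of these genes on the same radicle libraries, so the radicle counts are not independent evidence of their direction. The rule leaves out genes that rise by 0.5 or more in radicles, so nothing is read from the lack of members in either list.

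Some members were close to absent from radicles. *MtrunA17_Chr8g0335651*, rank 5, had 172 and 203 CPM in C5P against 27.8 and 27.7 CPM in C5, and 111 and 114 CPM in C1P against 8.76 and 9.17 CPM in C1. Its radicle libraries were all at the floor, the highest at 0.0874 CPM, so the thresholds on radicles were met with hardly any reads. *MtrunA17_Chr3g0142421*, rank 7, had 7.96 and 8.68 CPM in C5P against 0.44 and 0.263 CPM in C5, and 3.71 and 7.63 CPM in C1P with both C1 libraries at the floor, which makes it at least 42.9-fold higher in C1P. *MtrunA17_Chr4g0011841*, rank 60 and named after its values were seen, had 121 and 113 CPM in C5P against 55.1 and 54.5 CPM in C5, and 138 and 192 CPM in C1P against 65.3 and 59.5 CPM in C1, with at most 0.218 CPM in radicles.

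A group of 3 members lay within 6 consecutive identifiers on chromosome 2 and was nearly silent in radicles. *MtrunA17_Chr2g0280001* had 29.6 and 25 CPM in C5P against 5.07 and 5.49 CPM in C5, and 13.1 and 4.38 CPM in C1P against 0.476 and 0.655 CPM in C1. *MtrunA17_Chr2g0280011* had 15.2 and 17.0 CPM in C5P against 2.37 and 2.76 CPM in C5, and 6.1 and 11.9 CPM in C1P against 0.424 and 0 CPM in C1, with 0 counts in all 8 radicle libraries. *MtrunA17_Chr2g0280051* had 6.16 and 5.16 CPM in C5P against 0.363 and 0.901 CPM in C5, and 2.67 and 2.27 CPM in C1P against 0 CPM in both C1 libraries, again with 0 counts in radicles. All 3 kept the same order of groups, C5P above C1P on average, then C5, then C1. A count of 0 allows up to 0.133 CPM in the radicle library with the smallest total, from counting error alone. Of the other 3 identifiers in the span, *MtrunA17_Chr2g0280041* had 2.8 and 3.56 CPM in C5P against 0.175 and 0.14 CPM in C5 and at most 0.379 CPM in C1P, and the others were at or near the floor throughout. The estimated counts were fractional in 9 libraries for *MtrunA17_Chr2g0280001*, in 7 for *MtrunA17_Chr2g0280011* and in 6 for *MtrunA17_Chr2g0280051*, which marks reads shared with similar genes, and whether the 3 share reads with each other was not tested.

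The other neighbouring pair was *MtrunA17_Chr1g0148731* and *MtrunA17_Chr1g0148771*, which differed in radicles. *MtrunA17_Chr1g0148731* had 17.5 and 17.6 CPM in C5P against 6.16 and 6.85 CPM in C5, and 1.01 to 2.74 CPM over the radicle libraries. *MtrunA17_Chr1g0148771* had 12.1 and 11.7 CPM in C5P against 2.11 and 2.06 CPM in C5, and 6.89 and 7.32 CPM in R5P against 20.6 and 22.4 CPM in R5. By chromosome the members were spread over 1 to 8, with 18 on chromosome 7 (18.2% of the members, 12.5% of detected genes), 16 on chromosome 4, 15 on 3, 14 on 2, 13 on 1, 10 on 8, 9 on 5 and 3 on 6, and 1 on an unplaced contig.

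The remaining members of the 10 highest ranks were higher with PEG in cotyledons and mostly lower with PEG in radicles at 5 mm. *MtrunA17_Chr2g0290311*, rank 2, had 23.0 and 22.1 CPM in C5P against 2.42 and 3.34 CPM in C5, and 11.6 and 9.76 CPM in C1P against 0.885 and 0.219 CPM in C1, and in radicles 10.2 and 6.54 CPM in R5P, which overlapped at its upper end with 11.6 and 10.2 CPM in R5. *MtrunA17_Chr2g0328261*, rank 6, had 65.8 and 72.3 CPM in C5P against 14.5 and 11.6 CPM in C5, and 27.0 and 32.0 CPM in C1P against 4.42 and 4.17 CPM in C1. In radicles it had 1.68 and 1.35 CPM in R5P against 4.32 and 4.39 CPM in R5, and 2.79 and 2.68 CPM in R1P against 4.03 and 3.23 CPM in R1. *MtrunA17_Chr0c12g0493641*, rank 9, had 30.6 and 23.4 CPM in C5P against 3.72 and 4.43 CPM in C5, and 12.4 and 11.3 CPM in C1P against 0.922 and 0.79 CPM in C1, and in radicles 0.149 and 0.828 CPM in R5P against 1.49 and 2.26 CPM in R5. In each of them C5P was the highest of the 8 groups, and both treated cotyledon groups were above both untreated ones. *MtrunA17_Chr7g0222321*, rank 10, had 31.8 and 31.7 CPM in R5P against 56.2 and 67.7 CPM in R5, and 46.7 and 50.7 CPM in R1P against 55.6 and 45.6 CPM in R1, next to 52.1 and 55.0 CPM in C5P against 8.97 and 11.1 CPM in C5. The difference between R5P and R5 was -1.09 for *MtrunA17_Chr2g0328261*, -0.95 for *MtrunA17_Chr0c12g0493641* and -0.94 for *MtrunA17_Chr7g0222321* in log2(CPM + 1), with no overlap of libraries. At the other end of the ranks, *MtrunA17_Chr3g0098801* (rank 98) had 41.5 and 34.1 CPM in C5P against 11.7 and 17.5 CPM in C5, and *MtrunA17_Chr1g0211991* (rank 99) had 50.7 and 52.5 CPM in C5P against 15.5 and 21.0 CPM in C5. In radicles *MtrunA17_Chr1g0211991* had 83.7 CPM in both R1P libraries against 56.7 and 63.8 CPM in R1, which do not overlap although its difference is under 0.5.

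Among the members with the highest CPM in treated cotyledons, reads were shared with similar genes in 4 of 5. *MtrunA17_Chr2g0287211* had 281 and 305 CPM in C5P against 129 and 155 CPM in C5, and 149 and 114 CPM in C1P against 64.6 and 65.8 CPM in C1. *MtrunA17_Chr2g0300241* had 175 and 179 CPM in C5P against 85.2 and 74.6 CPM in C5, and 183 and 252 CPM in C1P against 111 and 91.0 CPM in C1. *MtrunA17_Chr7g0272531* had 129 and 141 CPM in C5P against 51.7 and 33.6 CPM in C5, and 162 and 196 CPM in C1P against 81.3 and 70.9 CPM in C1. The group means of these 3 were between 2.02-fold and 3.16-fold higher with PEG over both stages. *MtrunA17_Chr5g0412531* had 223 and 113 CPM in C5P against 54.5 and 73.1 CPM in C5, and its replicates were far apart in radicles, with 144 and 42.3 CPM in R5P against 485 and 202 CPM in R5. These 4 had counts that were not whole in 15 or 16 libraries, against none for *MtrunA17_Chr8g0335651*, the other of the 5. Over all members, 34 (34.3%) had such a count in at least 1 library, against 35.2% of the 899 genes raised in cotyledons.

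A few members rest on 1 library. *MtrunA17_Chr4g0015851*, rank 96, had 1.92 and 51.6 CPM in C1P against 0.67 and 1.13 CPM in C1, and 3.35 and 1.94 CPM in C5P against 0.783 and 0.701 CPM in C5. Its difference of 3.87 at 1 mm, the highest of the members, came from replicate 2 of C1P. It is named for that reason, after its values were seen. The median difference between replicates of the members was 0.36 in log2(CPM + 1) in C1P, and 0.14 to 0.27 in the other groups.

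The rule did not use differences between stages, but it used the levels of the groups they compare, so these tests are not independent of the choice of members. The counts below describe the members beside all genes, and nothing particular to the members is read from them. All 99 members were tested in cotyledons. Without PEG, 33 of 99 (33.3%) were higher in C5 than in C1 and 4 (4.04%) were lower, where 5.7% of the 23060 genes tested were higher and 2.92% lower. The median log2 fold change was 0.74 over the members and 0.01 over all genes. The count rested on both C1 libraries, with 16 members called in either direction without replicate 1 of C1 and 13 without replicate 2, against 37 with both. After PEG, 8 members (8.08%) were higher in C5P than in C1P and none was lower, where 4.01% of genes were higher and 2.21% lower. For the lower direction edgeR had 7 members at an unadjusted p under 0.05 with that fold, and DESeq2 called 6. The median was 0.01 in this contrast, 0.00 over all genes. With either C5P library left out 2 members were called, and without replicate 1 of C1P 16 were. All 8 members higher in C5P than in C1P were also higher in C5 than in C1, which makes 24.2% of the 33. The same overlap over all genes was not computed.

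In untreated cotyledons *MtrunA17_Chr3g0112121* and *MtrunA17_Chr2g0279001* had the largest rises with stage among called members with a mean of at least 10 CPM in cotyledons. Over all members the log2 fold change in C5 over C1 went up to 8.03. *MtrunA17_Chr3g0112121* had 4.36 and 5.14 CPM in C5 against 0.31 and 0.219 CPM in C1, and 35.1 and 38.5 CPM in C5P against 3.88 and 2.51 CPM in C1P. Its log2 fold change was 4.19 ± 0.33 (SE) without PEG (adjusted p = 0.000674) and 3.14 ± 0.27 with PEG (adjusted p = 0.00223), in edgeR. The libraries of the 4 cotyledon groups did not overlap, C5P being highest, then C5, then C1P, then C1. *MtrunA17_Chr2g0279001* had 35 and 29.8 CPM in C5 against 2.48 and 1.49 CPM in C1 (log2 fold change 4.10 ± 0.47, adjusted p = 0.00217), and 76.7 and 105 CPM in C5P against 14 and 26.5 CPM in C1P (1.74 ± 0.41, adjusted p = 0.0452). *MtrunA17_Chr5g0409821* had 99.1 and 117 CPM in C5P against 12.0 and 9.8 CPM in C1P (2.92 ± 0.26, adjusted p = 0.00251), and 17.4 and 13.9 CPM in C5 against 2.48 and 1.93 CPM in C1 (2.90 ± 0.27, adjusted p = 0.00105). Its difference between stages was nearly the same with and without PEG. The 3 neighbours on chromosome 2 were also higher in C5 than in C1 (adjusted p = 0.00607, 0.0355 and 0.0101), and none passed the threshold between C5P and C1P.

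The largest fall was that of a hypothetical protein gene. *MtrunA17_Chr2g0279571* had 2.28 and 2.19 CPM in C5 against 61.3 and 66.0 CPM in C1, a log2 fold change of -4.76 ± 0.47 (adjusted p = 0.00122). After PEG it had 70.8 and 88.2 CPM in C5P against 86.0 and 184 CPM in C1P (-1.20 ± 0.39, adjusted p = 0.0926). The C5 libraries were below those of every other group, and the difference of 4.64 between C5P and C5 was the widest of the members at 5 mm. In radicles it had 402 and 573 CPM in R5P against 451 and 484 CPM in R5, and 355 and 463 CPM in R1P against 242 and 460.4 CPM in R1. Its counts were not whole in 14 libraries. *MtrunA17_Chr5g0414931* had 3.26 and 1.89 CPM in C5 against 8.32 and 8.16 CPM in C1 (-1.60 ± 0.34, adjusted p = 0.023), and 16.8 and 16.9 CPM in C5P against 16.6 and 20.8 CPM in C1P (-0.56 ± 0.31, adjusted p = 0.26). The call of *MtrunA17_Chr5g0414931* without PEG was lost without either C1 library, without replicate 1 of C5P, without replicate 2 of C5 and when a change beyond 2-fold was required. The other members that were lower in C5 were *MtrunA17_Chr1g0157061* and, named as the last of the 4, *MtrunA17_Chr1g0194851*.

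In radicles 18 members did not pass the filter on low counts, so the counts are of the 81 that did. In untreated radicles 27 of 81 (33.3%) were higher at 5 mm and 3 (3.7%) lower, where 13.8% of the 23793 genes tested in R5 over R1 were higher and 3.78% lower. After PEG 16 of 81 (19.8%) were higher in R5P than in R1P and 4 (4.94%) were lower, where 15.3% of genes were higher and 3.82% lower. Medians were 0.40 without PEG and 0.35 with PEG, against -0.07 and 0.05 over all genes. Of the members higher with stage in untreated cotyledons and in untreated radicles, 20 were shared, which is 20 of the 28 from cotyledons that were tested in radicles (60.6% of all 33) and 74.1% of the 27 from radicles, again with no such overlap computed over all genes. *MtrunA17_Chr3g0112121* was among them, with 4.24 and 3.31 CPM in R5 against 0.131 and 0.086 CPM in R1, as was *MtrunA17_Chr5g0409821*, with 2.53 and 3.61 CPM in R5 against 0 and 0.215 CPM in R1. Members higher in all 4 stage contrasts numbered 4, a count that was not computed over all genes either.

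*MtrunA17_Chr3g0095231* had the largest rise in R5 over R1 among members with at least 10 CPM on average, with 27.2 and 28.1 CPM in R5 against 3.33 and 3.44 CPM in R1 (2.94 ± 0.26, adjusted p = 3.22e-05), and 13.7 and 17.6 CPM in R5P against 5.98 and 3.46 CPM in R1P (1.62 ± 0.25, adjusted p = 0.000994). *MtrunA17_Chr2g0279001* had 21.6 and 18.9 CPM in R5 against 3.24 and 3.23 CPM in R1 (2.56 ± 0.24, adjusted p = 4.24e-05), and 14.7 and 20.4 CPM in R5P against 5.28 and 3.85 CPM in R1P (1.82 ± 0.23, adjusted p = 0.000273). Its rises in radicles and in untreated cotyledons were called under every alternative tried for them, whereas its call in C5P over C1P was lost without either C5P library and when a change beyond 2-fold was required. *MtrunA17_Chr1g0157061* had 271 CPM in both R5 libraries against 579 and 693 CPM in R1 (-1.31 ± 0.14, adjusted p = 9.36e-05), and 273 and 323 CPM in R5P against 645 and 676 CPM in R1P (-1.26 ± 0.14, adjusted p = 0.000117). It also fell in cotyledons without PEG, with 2.6 and 1.84 CPM in C5 against 6.32 and 5.92 CPM in C1 (-1.39 ± 0.25, adjusted p = 0.0129), whereas C5P had 32.1 and 32.5 CPM against 30.0 and 26.0 CPM in C1P. *MtrunA17_Chr7g0269751* had 17.9 and 17.5 CPM in R5 against 40.4 and 30.2 CPM in R1 (-1.09 ± 0.20, adjusted p = 0.00249), a call that was lost without replicate 1 of R1, with library totals and when a change beyond 2-fold was required. *MtrunA17_Chr8g0387371* had 45.2 and 41.9 CPM in R5P against 111 and 110.1 CPM in R1P (-1.45 ± 0.16, adjusted p = 9.99e-05).

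**Figure D3:**
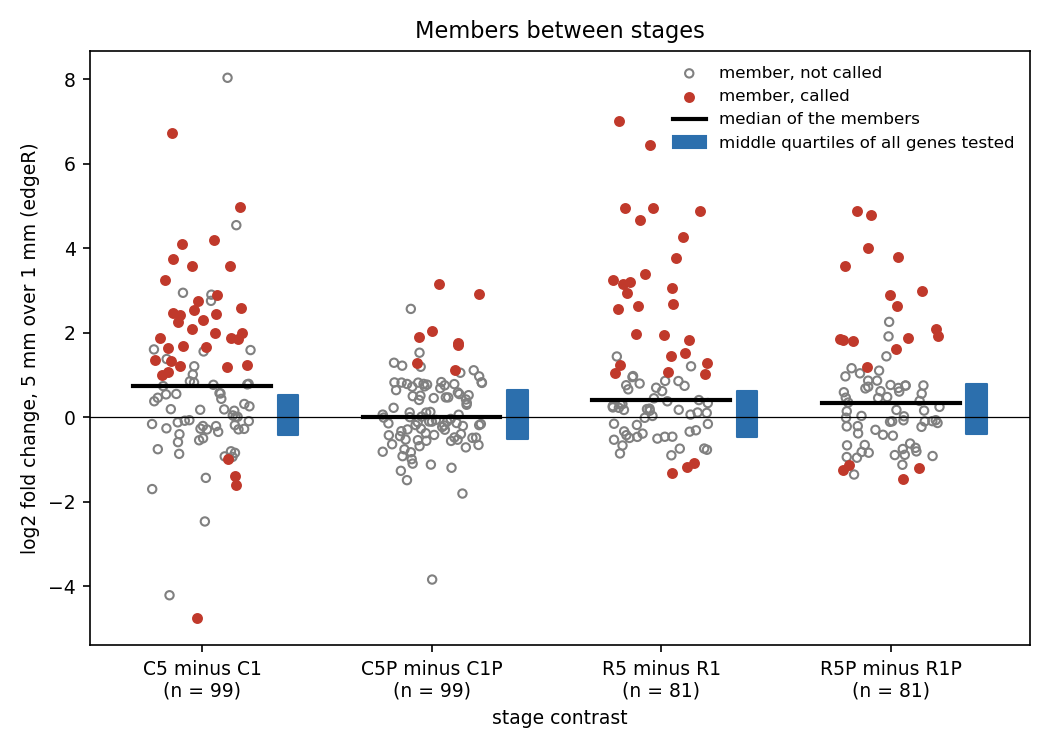
Each point is the edgeR log2 fold change of 1 member between 5 mm and 1 mm in 1 of the 4 stage contrasts, filled red where called, with the members' median as a black bar and the middle quartiles of all genes tested as a blue block. The medians of the members are 0.74 in C5 over C1, 0.01 in C5P over C1P, 0.40 in R5 over R1 and 0.35 in R5P over R1P, and the radicle contrasts hold the 81 members that passed the filter on low counts.

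Whether the difference between stages itself differed between tissues was tested in a fit over all 16 libraries, a test added after the data were seen. All 99 members were tested. Without PEG, 5 members had a larger rise (or smaller fall) with stage in cotyledons than in radicles and 9 the opposite, where 1.76% and 3.69% of the 25524 genes tested did. After PEG, these were 7 and 8 members, where 4.25% and 5.92% of genes did. The number without PEG fell to 6 in all without replicate 1 of C1, and to 7 to 9 without replicate 2 of C1, replicate 1 of C5, replicate 1 of R1 or either R5 library. With PEG it was 23 without replicate 1 of C1P and 10 without replicate 1 of R1P. *MtrunA17_Chr8g0387371* had a higher level in C5 (40.9 and 56.8 CPM) than in C1 (19.9 and 30.4 CPM), with the opposite order in R5 (74.8 and 65.0 CPM) and R1 (119 and 101 CPM), and the difference between the tissues was 1.69 ± 0.30 on the log2 scale (adjusted p = 0.00555).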

How the data were processed

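The authors sequenced RNA of 16 dissected samples, checked reads with FastQC and quantified them with Salmon 1.2 against the Mtv5 transcriptome (annotation r1.6), per the study's methods and processing notes. The deposited table holds the resulting expected counts per gene, which are not normalized and need not be whole, because Salmon splits ambiguous reads. All its sample columns were used (0 left out). For tests the expected counts were rounded, filtered with filterByExpr and fitted with edgeR 4.0.16 (quasi-likelihood, TMM factors, R 4.3.3), with 1 fit per tissue over 8 libraries and 1 over 16 for differences between tissues. P-values were adjusted by Benjamini-Hochberg over all genes tested, and a call needed an adjusted p under 0.05 and a log2 fold change past 1. DESeq2 1.42.0 was an alternative. Tables and plots used Python 3.11.15, pandas 2.3.3 and matplotlib 3.10.9. With 2 libraries a group, a two-sided exact permutation test cannot go under p = 0.333, and p-values measure the spread between these samples only. Floors and the bound given for a count of 0 cover counting error only, whereas the SEs come from the edgeR fit and include the spread between replicates.

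Named genes were the 10 highest ranks, annotated members, the 5 with the highest CPM in treated cotyledons, the 2 largest called rises and falls per stage contrast with a mean of at least 10 CPM, the lowest ranks and neighbouring identifiers. The members and lists were chosen with earlier results of these data known. On data simulated for C5 against C1 with 23060 genes, the fit called 4 of 67 genes changed 2-fold (which is the call's own threshold), 41 of 67 changed 4-fold, 61 of 66 changed 8-fold and 2 unchanged ones. Other scalings, filters, tests and each library left out in turn were tried as alternatives.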

Additional observations from a re-analysis of the deposited data

Results flagged for a closer look

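The difference between stages was itself different between the tissues for 10 of the named members, in the edgeR fit over 16 libraries that was added after the data were seen. Values are the log2 change from 1 mm to 5 mm in cotyledons minus that in radicles. Without PEG this was 1.69 for *MtrunA17_Chr3g0133071* (adjusted p = 0.0195), 1.45 for *MtrunA17_Chr2g0328261* (adjusted p = 0.0278), 1.73 for *MtrunA17_Chr7g0222321* (adjusted p = 0.0047) and 1.69 for *MtrunA17_Chr8g0387371* (adjusted p = 0.00555). It was negative for *MtrunA17_Chr2g0279571* at -5.15 (adjusted p = 0.000247), for *MtrunA17_Chr5g0414931* at -3.16 (adjusted p = 0.000313) and for *MtrunA17_Chr3g0095231* at -1.36 (adjusted p = 0.0445).

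With PEG it was 1.43 for *MtrunA17_Chr3g0133071* (adjusted p = 0.0237), 1.85 for *MtrunA17_Chr2g0328261* (adjusted p = 0.00596), 2.08 for *MtrunA17_Chr7g0222321* (adjusted p = 0.00072), 1.63 for *MtrunA17_Chr8g0387371* (adjusted p = 0.00476), 1.15 for *MtrunA17_Chr1g0157061* (adjusted p = 0.0177) and 1.93 for *MtrunA17_Chr1g0148771* (adjusted p = 0.00176). It was -1.45 for *MtrunA17_Chr3g0129661* (adjusted p = 0.0332). Leaving out single libraries ended the calls of *MtrunA17_Chr3g0133071* with and without PEG, of *MtrunA17_Chr2g0328261* and *MtrunA17_Chr3g0095231* without PEG, and of *MtrunA17_Chr3g0129661* and *MtrunA17_Chr1g0157061* with PEG. The call of *MtrunA17_Chr3g0095231* was kept in 6 of 18 alternatives.

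Chloroplast identifiers, which the comparisons do not use, took 0.707 and 0.923% of counts in C5P and 0.723 and 4.06% in C1P, against 0.313 to 0.477% in untreated cotyledons.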

How the results depend on the processing

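Counts here are members called, in both directions for stage contrasts. The share of all genes called was not computed under these settings, so nothing particular to the members is read from the counts. The rule kept 44 members with a pseudocount of 5, and 83 (without replicate 1 of C1P) to 98 with 1 library left out. Requiring a change beyond 2-fold (TREAT) left 54 members higher in C5P over C5, 1 in R1P over R1, 20 in C5 over C1, 2 in C5P over C1P and 12 in R5P over R1P. The adjusted p alone gave 25 in R1P over R1, 11 in R5P over R5 and 40 in R5P over R1P. Library totals gave 2 in R1P over R1 and 21 in C5P over C1P, where they shifted the median over all genes by -0.37 and 0.42. For C5P over C1P, against 8 in the report, there were 15 with no filter on low counts, 17 with DESeq2 and 16 with 1 model over 16 libraries, which gave 3 in R5P over R5. With the replicate number as a block C5P over C1P had 4, and no other count moved by over 1.5 times (C1P over C1 96, C5P over C5 92, C5 over C1 32). Among named members the block ended the calls of *MtrunA17_Chr5g0414931* in C5 over C1 and of *MtrunA17_Chr3g0095231* for the difference between tissues without PEG. Whether the replicate numbers pair the samples is not known. Correlations of same-numbered deviations were -0.334 to 0.152 in cotyledons and 0.0365 to 0.18 in radicles. With 1 library left out the ranges were 92 to 97 in C1P over C1, 68 to 97 in C5P over C5, 4 to 10 in R1P over R1, 0 to 1 in R5P over R5, 13 to 39 in C5 over C1, 2 to 16 in C5P over C1P, 22 to 30 in R5 over R1, 18 to 22 in R5P over R1P, 6 to 17 for the difference between tissues without PEG and 10 to 23 with PEG. The cause was not tested. Over 28 calls of named members in 476 settings, 426 were kept, 50 lost and 0 changed sign.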
